A study of Mus musculus with 2 samples.

Results

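Stab2 ECs were the endothelial barcodes that carried the transcript of stabilin-2, the hyaluronan and matrix scavenger receptor of the liver sinusoid. They were chosen by measured values, at least 1 UMI (unique molecular identifier, 1 captured RNA molecule) of Cdh5, the gene of VE-cadherin, and at least 3 UMIs of Stab2. Of 14348 barcodes that passed the quality limits, 8318 held Cdh5, and 773 of these were Stab2 ECs, which is 9.29% of the Cdh5 barcodes (exact 95% binomial interval 8.68 to 9.94). All came from 1 droplet library that pooled hashtagged liver and heart cells from mouse pups of 3 genotypes, so there was 1 sample per tissue and genotype and no replicate. The pups were control, Cdh5-CreERT2 with iSuRe-Cre, or Cdh5-CreERT2 with iSuRe-HadCre. After recombination, iSuRe-Cre expresses Cre and a membrane Tomato reporter permanently. By the study's design, iSuRe-HadCre expresses Cre only for a time, and its Tomato reporter turns on as Cre is deleted. Cdh5-CreERT2 limits tamoxifen-induced recombination to endothelium. The strain was C57BL/6, all pups received 40 mg of 4-hydroxytamoxifen per kg at postnatal day 3, and tissue was taken 3 days later, at an age of 6 to 7 days. Cells were sorted for CD31 and membrane Tomato by the protocol, while the design text speaks of cells with and without Tomato. The labels give neither the control genotype, the number of pups nor the floxed Notch1 alleles that the study draws for its iSuRe pups. Intervals below are exact 95% intervals that cover counting error only, no test was possible between samples, and CPM means UMIs of a gene per 1000000 gene UMIs of a group of barcodes.

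The hepatic sinusoid is lined by a fenestrated endothelium without a continuous basement membrane, and its cells are the main scavengers of the blood. They clear hyaluronan, modified proteins and small immune complexes through stabilins, the mannose receptor and the inhibitory Fc receptor, and degrade the cargo in lysosomes. Along the sinusoid the cells near the central vein supply Wnt ligands and R-spondin to hepatocytes, while those near the portal tract carry arterial-type genes such as Efnb2. GATA4 and MAF are transcription factors known to maintain this identity.

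Stab2 lies on the minus strand of chromosome 10 at 86841198 to 87008025, and Cdh5 on the plus strand of chromosome 8 at 104101625 to 104144511 (GRCm38, GENCODE M21). The sequences before the starts of Stab1 and Clec4g are shown because these scavenger genes were high in the same cells as Stab2 without being part of the rule, and because Maf and Gata4, whose factors read short motifs, were high there too. They are the 250 RefSeq bases before the start (GRCm38.p6), at chr14:31168642-31168891 and chr8:3720652-3720901, both on the minus strand and written 5′ to 3′, with motif matches in capitals.
Stab1: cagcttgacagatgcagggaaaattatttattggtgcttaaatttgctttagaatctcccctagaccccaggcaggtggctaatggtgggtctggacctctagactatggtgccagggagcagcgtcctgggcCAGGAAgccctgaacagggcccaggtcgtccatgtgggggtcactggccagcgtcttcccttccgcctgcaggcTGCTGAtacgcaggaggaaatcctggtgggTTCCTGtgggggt
Clec4g: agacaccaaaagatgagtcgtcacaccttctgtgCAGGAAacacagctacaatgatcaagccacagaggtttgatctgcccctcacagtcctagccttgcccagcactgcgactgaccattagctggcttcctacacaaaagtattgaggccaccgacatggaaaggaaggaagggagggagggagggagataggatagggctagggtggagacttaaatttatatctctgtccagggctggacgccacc
Motifs were searched on both strands over 32851 promoter windows of this length. The GATA-type motif TGATAA was held by 7.94% of the windows and its other form AGATAA was held by 9.99%. The MAF-type motif TGCTGA was held by 16.1%. The ETS-type motif CAGGAA was held by 25.7% and its other form CCGGAA was held by 12%. The Stab1 window held 1 MAF-type and 2 ETS-type matches and the Clec4g window 1 ETS-type match. Neither TGATAA nor AGATAA was in either window, and other letters that contain GATA were not searched. A match here is a description of the letters and not of a bound site.

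Most Cdh5 barcodes held no Stab2 at all. Stab2 was at 0 UMIs in 6208 of them, at 1 UMI in 1051, at 2 UMIs in 286 and at 3 UMIs in 120. Among the 773 Stab2 ECs, 165 held 3 to 4 Stab2 UMIs, 101 held 5 to 9 and 507 held 10 or more, with a median of 18 and a maximum of 116. Barcodes became rarer up to 8 Stab2 UMIs and then held a broad plateau, as the histogram of Stab2 UMIs shows. The sinusoidal lists summed higher just inside the limit than just outside it, though not every gene did. Stab2 itself sets these classes, so the values are a description. Clec4g was at 59.3 CPM (49.2 to 70.8) in the 286 barcodes with 2 Stab2 UMIs and at 101.7 CPM (82.1 to 125) in the 120 with 3, Maf at 175 and 283 CPM, Dnase1l3 at 80.7 (68.9 to 93.9) and 106.1 CPM (86 to 129), and the summed sinusoidal lists described below at 1968 and 2442 CPM. Lyve1 was not higher inside the limit, at 98.2 CPM (85.1 to 113) and 86.4 CPM (68.4 to 108). Hepatocyte genes were lower inside the limit, at 5059.7 and 652 CPM, as were lymphatic genes, at 729 and 59.1 CPM. These 2 lists did not change evenly across the classes. At 1 and at 5 to 9 Stab2 UMIs, hepatocyte genes were at 2660 and 1729 CPM and lymphatic genes at 168 and 130 CPM. The free RNA of barcodes with 10 to 100 UMIs held Stab2 at 223 CPM. Stab2 ECs had a median of 8608 UMIs (2066 to 73728) against 5473 in the 6208 Stab2-zero ECs. Another 63 barcodes held at least 3 Stab2 UMIs without Cdh5.

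**Figure D1:**
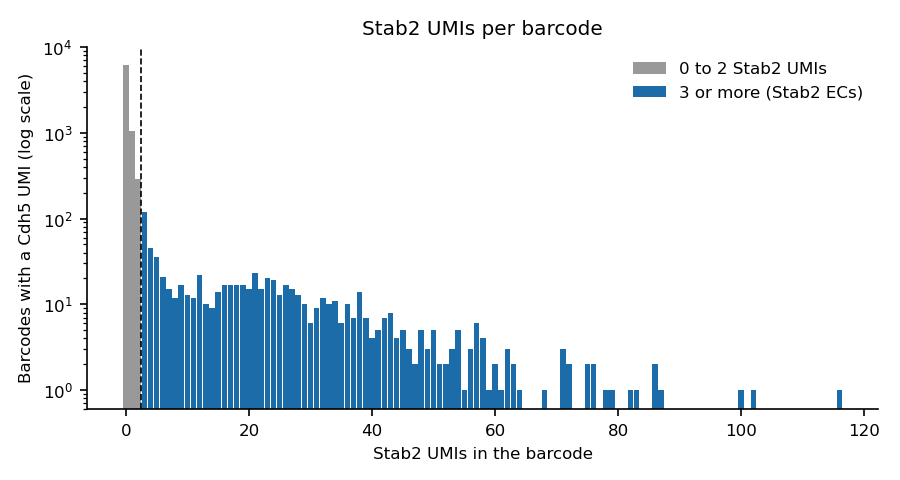
Number of barcodes with at least 1 Cdh5 UMI (log scale) by the number of Stab2 UMIs in the barcode. Grey bars are barcodes of 0 to 2 Stab2 UMIs, blue bars the 773 Stab2 ECs, and the dashed line is the limit. The counts go from 120 barcodes at 3 UMIs to 12 at 8 UMIs and 23 at 21 UMIs.

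Stab2 ECs carried mainly the hashtag of the iSuRe-Cre liver, a value the rule did not use. HTODemux called 436 of them singlets, and 398 of these, 91.3% (88.2 to 93.8), were iSuRe-Cre liver. That share was 14.1% (12.7 to 15.5) among singlets of the Stab2-zero ECs. A further 20 Stab2 ECs were called iSuRe-HadCre liver and 2 control liver, so that liver hashtags made up 96.3% (94.1 to 97.9). Heart hashtags were called in 16, of which 10 were control heart, 3 iSuRe-Cre heart and 3 iSuRe-HadCre heart. The heart calls rested on few tag UMIs, with medians of 5, 7 and 8 of the called hashtag beside 30, 58 and 54 of the iSuRe-Cre liver hashtag. The 2 control liver calls were alike, with medians of 7 beside 37.5, at calling limits of 4 and 67 UMIs. The 20 iSuRe-HadCre liver calls had medians of 54.5 beside 21. Of all ECs with a given call, 44.6% (41.3 to 48.0) were Stab2 ECs in iSuRe-Cre liver, 6.43% (3.97 to 9.76) in iSuRe-HadCre liver and 0.787% (0.0955 to 2.82) in control liver. The calling limits were 67, 5 and 4 UMIs in that order, so the ECs these shares refer to were not called equally firmly. Stab2 over all ECs of a call was at 1229 CPM in iSuRe-Cre liver, 148 CPM in iSuRe-HadCre liver and 46.5 CPM in control liver, while the 3 heart samples were between 7.41 and 18.2 CPM.

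The remaining Stab2 ECs were 271 called doublets and 66 without a call. In the called doublets the iSuRe-Cre liver hashtag was the highest in 262, and the median of the highest hashtag was 417 UMIs against 8 of the second. This hashtag was widespread. Where the highest hashtag needed 25 UMIs and 3 times the next, it was assigned to 97.5% of 734 Stab2 ECs and also to 84% of 3477 Stab2-zero ECs. Its amount went up with Stab2, from a median of 27 UMIs in Stab2-zero ECs to 51 at 1 to 2, 74 at 3 to 4, 218 at 5 to 9 and 595 at 10 or more Stab2 UMIs. The library also holds 5 multiplexing tags that no label assigns. Their summed median was 214, 395, 312, 104 and 46 UMIs in the same classes. The 507 barcodes of 10 or more Stab2 UMIs thus stood apart by high hashtag and low multiplexing tag, and the part of the tags in the results was not tested. They also carried the sinusoidal genes at a higher level, which sums to 9346 CPM over the lists described below against 2550.4 CPM at 3 to 4 Stab2 UMIs and 3581 CPM at 5 to 9. Between 10 or more and 3 to 4 Stab2 UMIs, 19 of 23 measured genes of these lists were at least 2-fold higher, beside 7.92% of 6134 genes higher and 2.92% lower. Stab2 itself sets this contrast, so the values are a description.

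**Figure D2:**
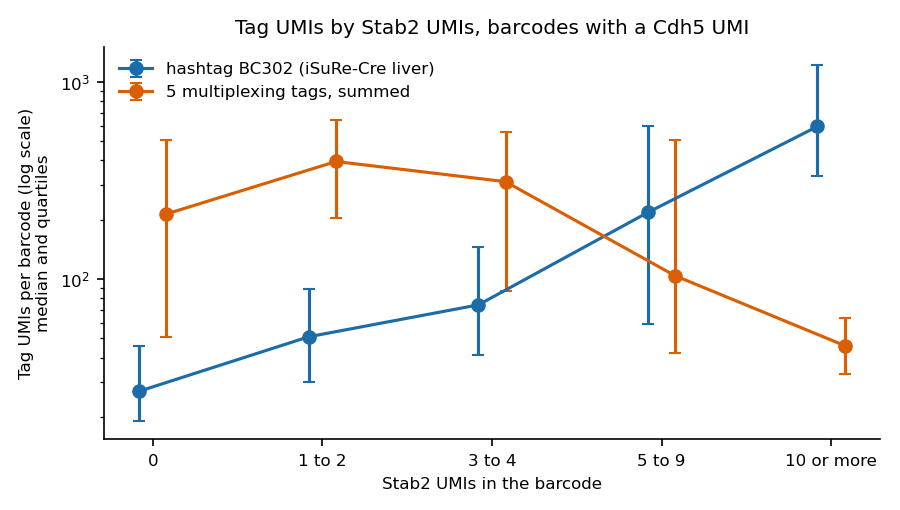
Tag UMIs per barcode (log scale, median with the lower and upper quartile) against the number of Stab2 UMIs, for barcodes with a Cdh5 UMI. The iSuRe-Cre liver hashtag (blue) has medians from 27 to 595 across the classes, and the summed multiplexing tags (orange) are at 46 in the class of 10 or more.

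Scavenger and other sinusoidal genes were far higher in Stab2 ECs than in ECs without Stab2. The contrast was set by the rule, so the values are a description. Of 12101 genes with at least 200 UMIs, 4.62% were at least 2-fold higher and 7.81% at least 2-fold lower in the 773 Stab2 ECs than in the 6208 Stab2-zero ECs. Of the 24 genes on the scavenger and identity lists other than Stab2, 19 were higher and 1, Bmp6, was lower, with a median log2 ratio of 2.80 beside -0.04 over all genes. Leading genes were Fcgr2b, the inhibitory Fc receptor (309 against 5.46 CPM, ratio 56.5), Clec4g, the lectin LSECtin (362 against 7.37 CPM, 49.1), Dnase1l3, a secreted DNase (456 against 10.2 CPM, 44.9) and Oit3 (321 against 7.97 CPM, 40.3). Because Stab2-zero ECs came from both organs and all samples, the gene groups of endothelium below are given within the iSuRe-Cre liver hashtag, 398 Stab2 ECs against 339 Stab2-zero ECs, with medians of 9261 and 6234 UMIs. The calls were not equally firm. The median of that hashtag was 547 UMIs in the Stab2 ECs and 113 UMIs in the Stab2-zero ECs, at a calling limit of 67, and that of the multiplexing tags 47 and 229 UMIs. The cardiomyocyte list was at 14 and 147 CPM, with Actc1, cardiac actin, at 7.54 and 105 CPM. The part of these differences in the comparisons within the hashtag was not tested.

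Within that hashtag 6.04% of 6048 genes were at least 2-fold higher and 3.26% at least 2-fold lower in Stab2 ECs. Of the scavenger list 8 of 11 measured genes were higher, with a median log2 ratio of 1.81 against 0.03 over all genes. Mrc1, the mannose receptor, was at 937 CPM (909 to 965) in Stab2 ECs and 39.2 CPM (32 to 47.4) in Stab2-zero ECs, a ratio of 23.9 (19.7 to 29.3). Fcgr2b was at 384 and 11.2 CPM, a ratio of 34.3 (23.9 to 51). Clec4g differed 18.6-fold (14.5 to 24.2) and Msr1, a class A scavenger receptor, 11-fold (7.49 to 16.9). The differences were smaller for Lyve1, a hyaluronan receptor (6.34, 5.51 to 7.32), Dab2, a clathrin adaptor (3.68, 3.29 to 4.11), Stab1, the paralogue of Stab2 (3.66, 3.23 to 4.16) and Ehd3, an endosomal recycling protein (3.36, 2.97 to 3.81). Cd36, a fatty acid and lipoprotein receptor, was at 475 and 275 CPM, Scarb1, the HDL receptor, at 63.7 and 54.5 CPM, and Lrp1 at 19.4 and 18.3 CPM. After thinning every barcode to 2000 UMIs, Mrc1 had a UMI in 78% of Stab2 ECs and 9.37% of Stab2-zero ECs, and Stab1 in 55.5% and 16.7%. The free RNA held Mrc1 at 59.6, Clec4g at 42.3 and Fcgr2b at 41.2 CPM, which was above their level in the Stab2-zero ECs of this hashtag.

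Of the other sinusoidal identity genes 9 of 11 measured were higher and none lower past 2-fold within the hashtag, with a median log2 ratio of 2.55. Adam23 differed 24.6-fold (18 to 34.6), Dnase1l3 18-fold (14.5 to 22.7), Oit3 11.6-fold (9.37 to 14.4) and Plxnc1, a semaphorin receptor, 9.22-fold (7.65 to 11.2). Flt4, the receptor of VEGF-C, was at 291 and 35.4 CPM (8.2, 6.66 to 10.2), Bmp2 at 287 and 40.7 CPM (7.05, 5.8 to 8.66), F8, clotting factor VIII, at 731 and 137 CPM (5.35, 4.8 to 5.98) and Gpr182, an atypical chemokine receptor, at 327 and 84.7 CPM (3.86, 3.36 to 4.46). Bmp6, which hepatic endothelium supplies for iron sensing, went the other way, at 29.3 and 50 CPM (0.586, 0.458 to 0.749). Among genes named only for the size of their ratio, Slc9a9, an endosomal sodium-proton exchanger, was at 397 and 15.7 CPM, Gatm, the first enzyme of creatine synthesis, at 737 and 47 CPM, and Selenop, the plasma selenium carrier, at 2572 and 353 CPM. Clec1b (111 and 4.85 CPM) and Il1a (117 and 7.09 CPM) are outside the naming rule and were picked with their values known.

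**Figure D3:**
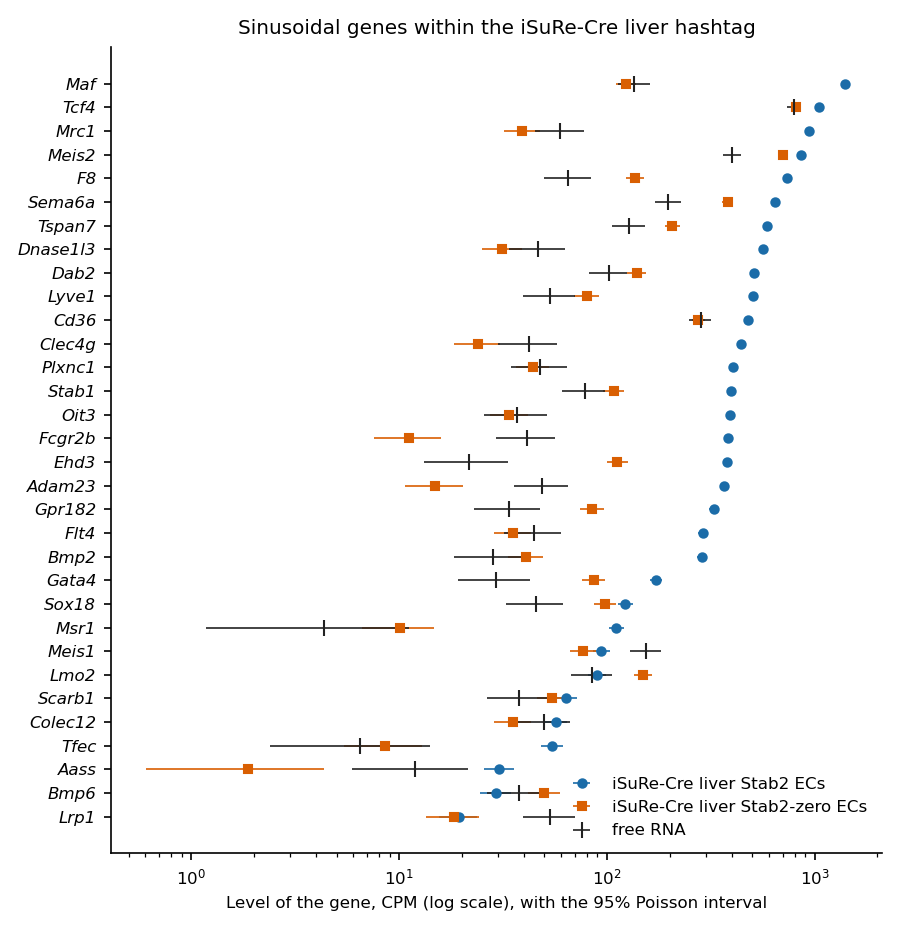
Level of each gene of the scavenger, identity and transcription factor lists in CPM (log scale) within the iSuRe-Cre liver hashtag, for 398 Stab2 ECs (blue), 339 Stab2-zero ECs (orange) and for free RNA (black), with 95% Poisson intervals. Maf, Mrc1, Dnase1l3 and Fcgr2b lie far apart between the EC sets, while Lrp1, Scarb1 and Meis2 lie close.

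Of 8 transcription factors, Maf and Tfec were past 2-fold within the hashtag. Maf was at 1393 CPM (1359 to 1427) in Stab2 ECs and 123 CPM (111 to 138) in Stab2-zero ECs, a ratio of 11.3 (10.1 to 12.6). Tfec, a relative of the lysosomal regulator TFEB, was at 54.5 and 8.58 CPM (6.35, 4.14 to 10.2). Gata4 was at 172 and 86.2 CPM, a ratio of 2 (1.72 to 2.32) that lay just under the 2-fold limit, and against Stab2-zero ECs of any hashtag it was 6.6. Lmo2 was lower, at 89.6 and 149 CPM, and Meis2, Tcf4, Meis1 and Sox18 differed by less than 1.3-fold. Of 12 lysosomal genes 4 were past 2-fold and none was lower. These were Lgmn, legumain (224 and 52.2 CPM, 4.29, 3.59 to 5.16), Ctsl, cathepsin L (1241 and 325 CPM, 3.82, 3.56 to 4.11), Lamp2 (464 and 188 CPM, 2.46, 2.23 to 2.72) and Ctsb, cathepsin B (392 and 187 CPM, 2.09, 1.9 to 2.32). Npc2, the cholesterol carrier of the lysosome, was at 237 and 217 CPM.

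Genes of the central vein side were mixed in direction. Of 5 measured within the iSuRe-Cre liver hashtag, Kit was higher past 2-fold in Stab2 ECs, Rspo3 and Cdh13 were lower, and Wnt2 and Thbd were within 2-fold, with a median log2 ratio of -0.45. Rspo3, the R-spondin that amplifies Wnt signals in hepatocytes, was at 130.0 CPM and 1553 CPM (0.0837, 0.0768 to 0.0912), and Wnt9b at 3.23 and 58.6 CPM (0.0551, 0.0301 to 0.0938). Wnt2, in contrast, was alike in level, at 152 CPM (141 to 164) and 155 CPM, a ratio of 0.985 (0.871 to 1.11), and its thinned share was 25.8% of Stab2 ECs and 18% of Stab2-zero ECs. Kit was higher in Stab2 ECs, at 122 and 60.4 CPM (2.02, 1.69 to 2.42). Of the portal side list, Itga9 was higher (193 and 47 CPM, 4.11, 3.41 to 5), while Jag1 (15.5 and 50 CPM, 0.31, 0.23 to 0.416) and Ltbp4 (38.1 and 88.4 CPM, 0.431, 0.353 to 0.526) were lower.

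Genes of the sinusoid's zones also differed among the Stab2 ECs themselves when these were split by Wnt2. Of the 398 iSuRe-Cre liver Stab2 ECs, 221 had a Wnt2 UMI and 177 had none, with nearly equal depth (medians of 9346 and 9136 UMIs). The split was made on a measured gene after values had been seen, so it is described without a test. Of 4472 genes with at least 200 UMIs, 0.648% were at least 2-fold higher and 1.07% at least 2-fold lower with Wnt2. On the central vein side, 3 of 5 measured genes were past 2-fold higher, Wnt2 itself included, and of the portal side list 2 of 4 were past 2-fold lower. Rspo3 was at 214 CPM with Wnt2 and 23 CPM without (9.34, 6.93 to 12.9), although 10 barcodes held 64.1% of its UMIs in the cells with Wnt2. Thbd, thrombomodulin, was at 59.3 and 26.9 CPM (2.21, 1.61 to 3.06) and Kit at 154 and 80.6 CPM (1.92, 1.59 to 2.31). A Kit UMI was seen in 71.9% of the cells with Wnt2 and 48.6% of those without.

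Portal side genes other than Itga9 were at lower levels with Wnt2. Ltbp4, which binds latent TGF-β, was at 10 CPM with Wnt2 and 73.8 CPM without (0.136, 0.0859 to 0.207), with 10 barcodes holding 61.5% and 46.4% of its UMIs, and Ntn4, a netrin, at 32.7 and 86.9 CPM (0.376, 0.287 to 0.49). Efnb2, the arterial ephrin, was at 33.9 and 73.8 CPM (0.459, 0.349 to 0.601), Jag1 at 10.8 and 21.5 CPM (0.502, 0.301 to 0.824), Efnb1 at 48.5 and 77.7 CPM (0.625, 0.491 to 0.794) and Dll4 at 16.9 and 26.9 CPM (0.631, 0.414 to 0.955). Itga9 was at 200.2 and 185 CPM (1.08, 0.948 to 1.24). None of 11 measured scavenger genes was past 2-fold across this division. Fcgr2b was at 395 and 370.2 CPM and Mrc1 at 1013 and 840.1 CPM, while Msr1 was at 95.5 and 131 CPM (0.73, 0.611 to 0.87). Lyve1 was at 624 and 356 CPM (1.75, 1.6 to 1.91) and had a UMI in 90.5% and 61.6% of the cells. The transcription factor Gata4 was at 175 and 169 CPM. Named after their values were seen, C1qb (230.3 and 44.9 CPM), Cyp26b1, a retinoic acid hydroxylase (104 and 34.2 CPM) and Rarb, a retinoic acid receptor (209 and 86 CPM) were higher with Wnt2. Thsd7a (13.1 and 173 CPM), Mecom (62 and 293 CPM), Vwf (35.4 and 146 CPM) and Eln (13.9 and 98.2 CPM) were lower. In the cells with Wnt2, 10 barcodes held 91.2% of the Thsd7a, 83.9% of the Mecom and 80.6% of the Eln UMIs. Markers of other cells moved with the split too. Hepatocyte genes summed to 319.97 CPM with Wnt2 and 1073 CPM without, 3 of 4 measured being lower past 2-fold, and Afp was at 21.9 and 366 CPM with 96.4% of its UMIs without Wnt2 in 10 barcodes. Large-vessel genes summed to 106 and 430.3 CPM, 2 of 3 being lower, and the part of these lists in the split was not tested.

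**Figure D4:**
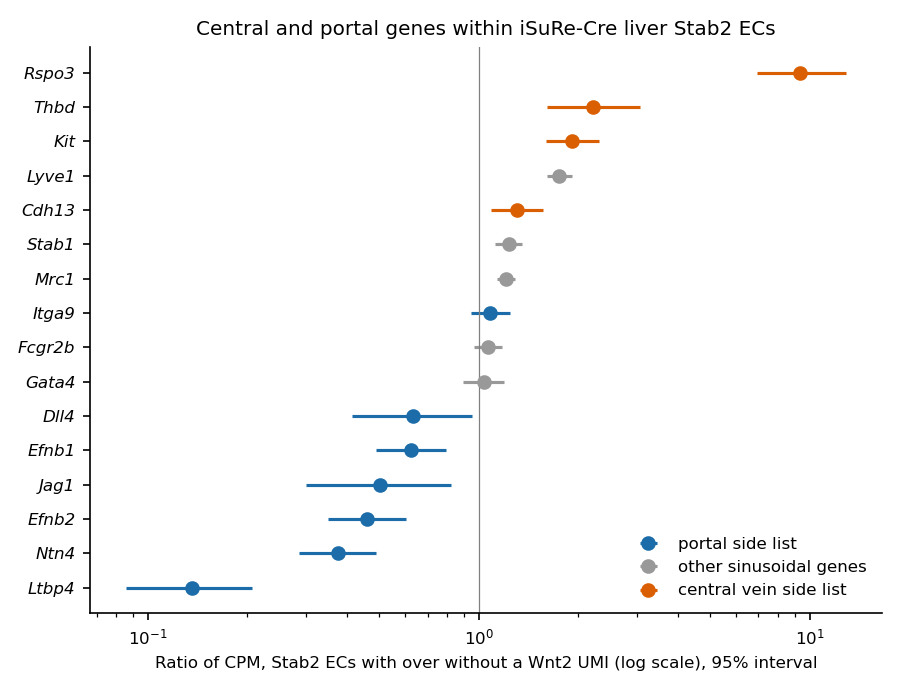
Ratio of CPM (log scale, with the exact 95% interval) between iSuRe-Cre liver Stab2 ECs with (221) and without (177) a Wnt2 UMI. Central vein side genes (orange) are above 1, from Cdh13 at 1.3 to Rspo3 at 9.34, and portal side genes (blue) are below 1 except Itga9. Other sinusoidal genes are grey.

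Signals that the sinusoid sends to neighbouring cells were divided between the EC sets. Of 9 measured angiocrine genes, Bmp2 and Hgf, hepatocyte growth factor, were higher in iSuRe-Cre liver Stab2 ECs. Hgf was at 76.4 CPM (68.7 to 84.8) and 7.46 CPM (4.56 to 11.5), a ratio of 10.2 (6.53 to 17). Lower past 2-fold were Rspo3, Cxcl12 (37.5 and 352 CPM, 0.106, 0.0899 to 0.125), Pdgfb (14.2 and 66.4 CPM, 0.214, 0.159 to 0.285) and Kitl, stem cell factor (128 and 355 CPM, 0.36, 0.324 to 0.399).

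Genes shared by endothelium were present on both sides. Of 12 pan-endothelial genes 2 were past 2-fold, Kdr, the main VEGF receptor (997 and 295 CPM, 3.38, 3.13 to 3.65) and Flt1 (763 and 381 CPM, 2, 1.87 to 2.15), and Cdh5, which the rule used on both sides, was at 701 and 679.6 CPM. Continuous capillary genes were lower, 6 of 10 measured past 2-fold, with a median log2 ratio of -1.23. Cav1, the caveolar coat protein, was at 56.6 and 288 CPM (0.196, 0.17 to 0.226), and Rgcc at 27.6 and 128 CPM (0.215, 0.174 to 0.265). The exception was Aqp1, a water channel, at 467 and 132 CPM (3.55, 3.17 to 3.98). Of 6 measured large-vessel genes 5 were lower and none higher, among them Eln, elastin (51 and 339 CPM, 0.15, 0.13 to 0.174), Mgp (43.3 and 244 CPM, 0.178, 0.151 to 0.208) and Gja4, connexin 37 (16.6 and 75 CPM, 0.221, 0.168 to 0.289). Ccl21a, a lymphatic chemokine and the measured gene of its list, was at 10.8 and 217 CPM (0.0496, 0.0364 to 0.0663). No Ccl21a UMI was seen in most Stab2 ECs, of which 0.754% had one.

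**Figure D5:**
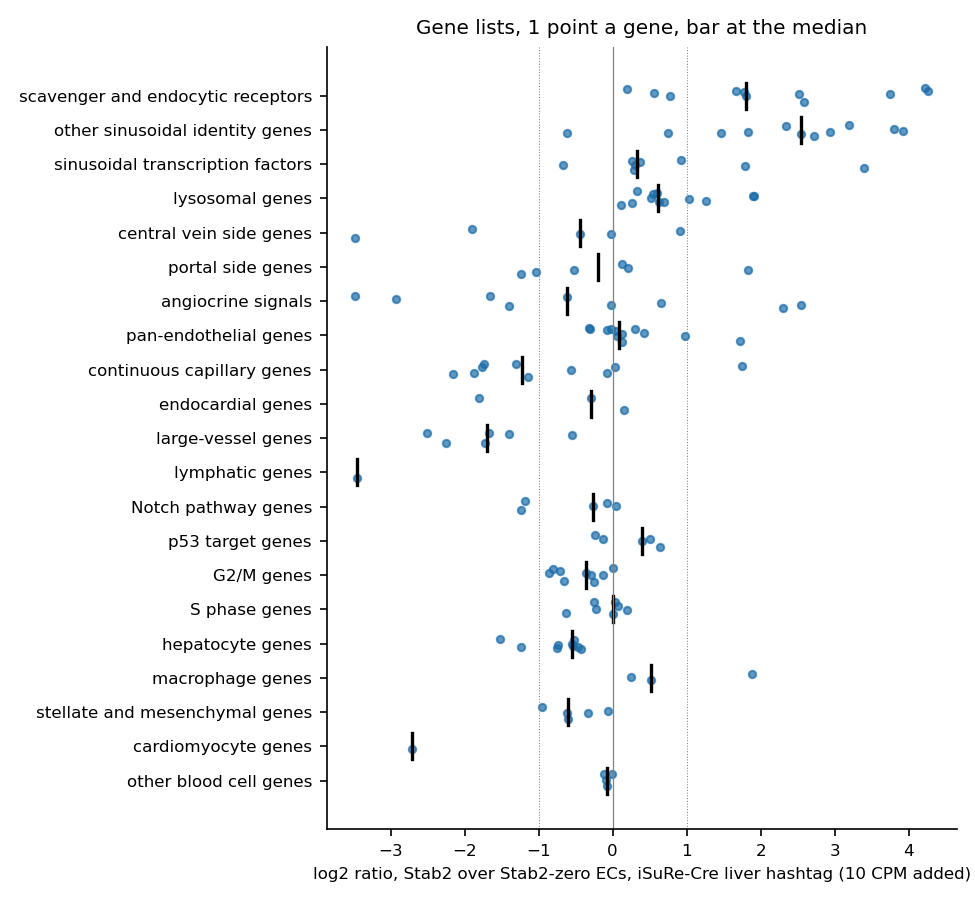
log2 ratio of CPM with 10 CPM added, iSuRe-Cre liver Stab2 ECs over Stab2-zero ECs of the same hashtag, for the genes of each list with at least 200 UMIs (1 point a gene, bar at the list's median). Dotted lines mark 2-fold. The genes of the sinusoidal lists lie to the right except Bmp6, with medians of 1.81 and 2.55, and large-vessel genes to the left, with a median of -1.70.

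Fewer Stab2 ECs carried G2/M genes, although none of 9 measured genes was past 2-fold and the median log2 ratio was -0.36. At least 3 of the 12 G2/M genes were seen in 22.6% (18.6 to 27) of iSuRe-Cre liver Stab2 ECs and 51% (45.6 to 56.5) of Stab2-zero ECs. After thinning to 2000 UMIs the shares were 11.4% and 32.4%, and the summed level was 768 and 1087 CPM. Free RNA held the list at 1469 CPM. With any hashtag it was at 1045 CPM at 3 to 4 Stab2 UMIs, 1577 CPM at 5 to 9 and 696 CPM at 10 or more. Stab2-zero ECs of any hashtag were at 1465 CPM. Ube2c, a mitotic ubiquitin enzyme, was at 96 and 182 CPM (0.529, 0.464 to 0.602), whereas Mki67 was at 97.3 and 97.4 CPM. The S phase list was at 599 and 640.1 CPM. Of 5 measured p53 targets none was past 2-fold, with Mdm2 at 67.6 and 39.9 CPM (1.69, 1.36 to 2.13) and Cdkn1a, the p21 inhibitor of the cycle, at 239.9 and 179.8 CPM (1.33, 1.2 to 1.49). Haemoglobin made up 0.169% of UMIs in these Stab2 ECs and 0.683% in the Stab2-zero ECs, and its part in these values was not tested.

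Of 5 measured Notch pathway genes, Notch2 (17.7 and 52.6 CPM, 0.336, 0.253 to 0.444) and Jag1 were lower and the others were within 2-fold. Notch1 was at 20.9 CPM (16.9 to 25.5, 97 UMIs) in iSuRe-Cre liver Stab2 ECs. In Stab2-zero ECs of the same hashtag Notch1 was at 23.9 CPM (18.4 to 30.5, 64 UMIs). These UMIs were together under the minimum for a compared gene, so Notch1 is not among the 5 measured genes. Free RNA held Notch1 at 19.5 CPM (11.6 to 30.8), an interval that holds both levels. The part of free RNA in the Notch1 levels and ratios was not tested. In control liver Stab2-zero ECs, 189 barcodes, Notch1 was at 80.8 CPM. The level in iSuRe-Cre liver Stab2 ECs was 0.258 of that in those control cells (0.194 to 0.344). Those cells differ in type and sample at once, and this ratio cannot tell the effects of the 2 apart. The control liver call also needed only more than 4 hashtag UMIs. Where the highest hashtag needed 25 UMIs and 3 times the next, 36 Stab2-zero ECs were control liver. Between Stab2 ECs and Stab2-zero ECs of iSuRe-Cre liver the ratio was 0.875 (0.632 to 1.22). Among Stab2-zero ECs the level was 23.9 CPM in iSuRe-Cre liver and 80.8 CPM in control liver. The part of type and of sample was not tested. Control liver gave 2 Stab2 ECs with 8078 UMIs and no Notch1 UMI, which allows a level of up to 371 CPM, and the 20 iSuRe-HadCre liver Stab2 ECs had none of 125551 UMIs, which allows up to 23.9 CPM. A difference in Notch1 between Stab2 ECs of the 3 livers was therefore not detectable at this depth.

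The transgene features differed between the alleles. WPRE, the viral element at the end of a transgene, was at 62.4 CPM (55.5 to 70.1) in the 398 iSuRe-Cre and 1004 CPM in the 20 iSuRe-HadCre liver Stab2 ECs, with free RNA at 160.4 CPM. Tomato was at 23.3 and 175 CPM in the same sets, with free RNA at 30.3 CPM. Of the polyadenylation sequences, Sv40-pA was at 142 and 31.9 CPM, with free RNA at 142 CPM, and Bgh-pA at 14 and 112 CPM. Cre was at 24.3 CPM (113 UMIs) in iSuRe-Cre liver Stab2 ECs and 7.96 CPM (1 UMI) in iSuRe-HadCre, with free RNA at 7.59 CPM (7 UMIs). In control liver Stab2-zero ECs Cre was at 7.62 CPM (10 UMIs), and the ratio of iSuRe-Cre Stab2 ECs to these was 3.19 (1.67 to 6.83). The reporter features went the other way against those control cells, where WPRE was at 312 CPM (ratio 0.2, 0.172 to 0.233) and Tomato at 48.8 CPM (0.477, 0.347 to 0.66). The 20 iSuRe-HadCre cells carried the sinusoidal genes as well. Stab2 was at 2111 CPM beside 2174 CPM in iSuRe-Cre, Maf at 1083 and 1393 CPM, Mrc1 at 613 and 937 CPM, Clec4g at 183 and 444 CPM and Gata4 at 366 and 172 CPM. Of 4560 genes 6.93% were at least 2-fold higher and 2.89% at least 2-fold lower in iSuRe-Cre than in iSuRe-HadCre cells, and 5 of 21 measured genes of the sinusoidal lists were higher and none lower. The genes with the highest ratios were those of neutrophils, such as Ngp (568 and 15.9 CPM) and Retnlg (149 CPM and 0), and those with the lowest, after WPRE, were haemoglobin and liver plasma protein genes, such as Afp (174 and 1434 CPM). Few barcodes carried the neutrophil RNA. Of the blood cell list, which includes Ngp, 10 of the 398 iSuRe-Cre barcodes held 98.3% of the UMIs, and the median barcode was at 68.3 CPM. With 20 cells of 1 sample on one side, cell makeup and allele cannot be told apart.

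RNA of other cell types was present in many Stab2 ECs, with the largest amounts in a few. The values are for all 773 Stab2 ECs against the 6208 Stab2-zero ECs of any hashtag unless the hashtag is named. A UMI of the macrophage list was seen in 60.7% of Stab2 ECs and 25.7% of Stab2-zero ECs, and one of the blood cell list in 58% and 48.1%, unthinned. Hepatocyte genes summed to 567 CPM in the 773 Stab2 ECs, 3375 CPM in Stab2-zero ECs and 6281 CPM in free RNA, with all 10 measured genes lower past 2-fold and Serpina3k at 0 UMIs in both EC sets. Within the iSuRe-Cre liver hashtag they were at 652 and 1081 CPM, with 2 of 9 measured genes lower. Barcodes with under 100 multiplexing-tag UMIs, 528 Stab2 ECs and 2498 Stab2-zero ECs, had 205 and 295 CPM and no hepatocyte gene past 2-fold. Macrophage genes summed to 617 and 208 CPM, with 5 of 10 measured genes higher, and 10 barcodes held 51.2% of these UMIs. In the iSuRe-Cre liver hashtag macrophage genes were at 521 and 304 CPM, with 1 of 3 measured genes higher. The list was highest in the 66 Stab2 ECs without a hashtag call, at 2542 CPM, where the Kupffer cell gene Cd5l was at 515 CPM against 5.17 CPM in iSuRe-Cre liver Stab2 ECs. The complement gene C1qb was more widely spread, with a UMI in 52.3% of iSuRe-Cre liver Stab2 ECs. Blood cell genes, mainly S100a8 and S100a9, summed to 4515 and 1496 CPM, and 10 barcodes held 86.9% of the UMIs. In the iSuRe-Cre liver hashtag blood cell genes were at 6092 and 6309 CPM, with none of 4 measured genes past 2-fold. The 18 Stab2 ECs richest in these lists were also left out, a choice made after seeing the data. Macrophage genes were then at 257 CPM with 1 of 9 higher and 3 lower. Blood cell genes were then at 531 CPM with 1 of 6 higher and 4 lower. All 6208 Stab2-zero ECs stayed in, at 208 and 1496 CPM, so these counts set a trimmed set against an untrimmed one. In the Stab2-zero ECs 10 barcodes held 23.8% of the macrophage and 57% of the blood cell UMIs. Erythroid genes summed to 3709 CPM in Stab2 ECs and 4949 CPM in Stab2-zero ECs, had a UMI in every Stab2 EC, and were at 1697 and 6776 CPM within the iSuRe-Cre liver hashtag, with 4 of 4 measured lower. Those 4 are haemoglobin genes, whose share the quality limit held under 5% in every barcode of both sets, so the values are a description. Free RNA held the erythroid list at 56968 CPM. Of the erythroid UMIs of Stab2 ECs 10 barcodes held 27.4%. Stellate and mesenchymal genes summed to 511 and 831 CPM. The cardiomyocyte list was at 37.7 CPM in Stab2 ECs, 96.4 CPM in Stab2-zero ECs and 279.6 CPM in free RNA. The part of these lists in the results was not tested.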

How the data were processed

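The library holds mRNA of sorted cells read as UMI counts, with hashtag counts of the same barcodes. Per the labels, Cell Ranger 7.1.0 was used with a GRCm38 reference, and the deposited matrix holds raw UMI counts of 21951 genes and transgene features for all barcodes, not normalized by the authors. Strand handling of overlapping genes is not given in the sources used here. Barcodes with over 2000 and under 75000 UMIs, over 500 genes, and mitochondrial and haemoglobin shares under 5% were kept. The members and gene lists were chosen with earlier results of these data known. HTODemux (Seurat 5.3.0, quantile 0.99) was run on the 6 labelled hashtags of barcodes with over 4 hashtag UMIs, and called doublets stayed in the set because the rule takes any hashtag. Scrublet (scanpy 1.11.5) marked no barcode at its own threshold and so did not work, and the 5% highest scores were removed as an alternative. UMIs were summed per set into CPM, and genes with at least 200 UMIs over both sets were compared, 2-fold being the limit. log2 ratios have 10 CPM added. Poisson, Clopper-Pearson and conditional intervals (95%, scipy 1.17.1) cover counting error only, and a count of 0 allows up to 3 UMIs. Named genes are those of the lists, the transgenes, the 15 highest and 10 lowest by ratio, and, between liver groups, the 10 highest and 10 lowest. Other names were chosen after their values were seen. Barcodes were thinned to 2000 UMIs, by the mean over all draws for genes and over 20 draws for lists. Free RNA came from 24194 barcodes of 10 to 100 UMIs. The calculation was tested on simulated data. Python 3.11.15 and R 4.3.3 were used. Promoter windows are from RefSeq. The labels give no group for 7 other tag features.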

Additional observations from a re-analysis of the deposited data

Results flagged for a closer look

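The 5 multiplexing tags, which no label assigns to a sample, were read in the same barcodes and were not used to assign samples. A limit of 100 of their UMIs was used for an alternative comparison. Their summed median was 52 UMIs in Stab2 ECs and 214 UMIs in Stab2-zero ECs, and 31.7% of Stab2 ECs had at least 100 of them against 59.8% of Stab2-zero ECs. A signal of Stab2 also lay outside the members, in 63 barcodes with at least 3 Stab2 UMIs and no Cdh5 UMI. In those 63 barcodes hepatocyte genes summed to 12679 CPM and the sinusoidal lists to 3294 CPM, beside 567 and 7552 CPM in the Stab2 ECs.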

How the results depend on the processing

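Of 53 values under alternatives, 27 stayed close to the reported one, 26 moved and 0 turned direction. The number of Stab2 ECs, 773, became 507 with at least 10 Stab2 UMIs and 436 with HTODemux singlets. The number of genes past 2-fold, 1504 (559 higher, 945 lower), became 681 (372 and 309) against Stab2-zero ECs with a liver hashtag, 562 (365 and 197) within iSuRe-Cre liver singlets and 2889 (906 and 1983) with a minimum of 20 UMIs. The median log2 ratio of the sinusoidal lists, 2.80, was 2.95 with at least 5 and 3.08 with at least 10 Stab2 UMIs, 3.07 in singlets, 3.04 after thinning, 3.08 under 100 multiplexing-tag UMIs, 2.64 without the haemoglobin limit, 2.43 within iSuRe-Cre liver singlets and 2.20 against liver hashtags. The hepatocyte share of UMIs, 0.0567%, was 0.0508% with at least 5 and 0.0257% with at least 10 Stab2 UMIs, 0.0736% in singlets, 0.061% without the highest Scrublet scores, 0.0529% after thinning, 0.053% as the mean over cells, 0.0171% after subtracting free RNA, 0.0756% without the haemoglobin limit and 0.0205% under 100 multiplexing-tag UMIs. The iSuRe-Cre liver share of singlets, 91.3%, was 95.7% with at least 5 and 97.6% with at least 10 Stab2 UMIs, 97.5% with a hashtag of 25 UMIs and 3 times the next, and 96.7% under 100 multiplexing-tag UMIs. The cause of these shifts was not tested. The comparisons within iSuRe-Cre liver singlets, by multiplexing tag and without blood-rich barcodes were added after seeing the data. No Notch1 ratio to control liver Stab2 ECs could be given, since control liver held 2 such cells with 0 Notch1 UMIs, and 1 cell with 1 UMI under the stricter hashtag rule. No paired analysis was possible because each tissue and genotype was 1 sample in 1 library, and for the same reason no replicate could be left out.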
